A study of Rattus norvegicus with 96 samples.

Results

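The glutathione and antioxidant defence genes examined here were 32 rat genes listed by symbol. The rule that picks their probe sets uses no measured value, but the list itself was drawn up with earlier results of these data known. They comprised glutathione transferases, glutathione peroxidases, the enzymes that make and recycle glutathione, superoxide dismutases, peroxiredoxins, the thioredoxin system and 2 stress-inducible enzymes. Every probe set annotated to one of these symbols alone was taken, which gave 35 probe sets of 31 genes among the 31042 probe sets on the array, or 31 of the 14217 genes with a probe set of their own. Prdx1 was not analysed here, because its 1 probe set is annotated to several symbols, and Gstt2, Gpx4, Gclc and Txnrd1 had 2 probe sets each.

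RNA came from the central nucleus of the amygdala, on 96 arrays labelled as 1 rat each. The animals belonged to 5 pairs of lines selectively bred for alcohol preference, and the preferring line of each pair was compared with its own non-preferring line. Arrays numbered 9 for HAD1 against 10 for LAD1, 10 for HAD2 against 10 for LAD2, 10 for P against 10 for NP, 10 for AA against 10 for ANA, and 8 for sP against 9 for sNP. The labels give no genotype within a line and no sex, age, treatment or alcohol exposure. The line is therefore all by which the labels distinguish the groups, and whether the groups differed in anything unrecorded is not known. Each line is 1 breeding population, so a difference between the lines of 1 pair cannot be told apart from drift between those populations.

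Glutathione is the main small thiol of cells. Glutathione transferases join it to reactive compounds such as lipid aldehydes, glutathione peroxidases spend it to reduce peroxides, and glutathione reductase returns the oxidised form to use. Superoxide dismutases turn superoxide into hydrogen peroxide, which peroxiredoxins, recharged by thioredoxin, also remove. In brain, astrocytes hold much of this system and supply neurons with precursors of glutathione. Many of these genes are induced by the transcription factor Nrf2, which binds the antioxidant response element (ARE) in their promoters.

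The 250 bases before the transcript starts of Gsta4 and Gstm5 are shown, Gsta4 because it passed the test between lines with arrays as labelled, and Gstm5 as a further transferase that passed in 1 pair when doubtful arrays were left out. Sequence is from RefSeq on the GRCr8 build, 5′ to 3′ on the gene's strand, and capitals mark the ARE core TGACNNNGC, searched on both strands with overlapping matches allowed; its first letters can be part of an AP-1 site (TGACTCA). The Gsta4 window is chr8:87947015-87947264 on the plus strand, and the Gstm5 window is chr2:198219519-198219768 on the plus strand.
Gsta4: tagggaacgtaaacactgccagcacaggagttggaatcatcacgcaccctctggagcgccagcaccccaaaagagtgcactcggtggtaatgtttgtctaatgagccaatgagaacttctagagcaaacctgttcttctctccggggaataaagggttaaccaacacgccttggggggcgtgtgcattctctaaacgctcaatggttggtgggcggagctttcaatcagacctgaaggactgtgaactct
Gstm5: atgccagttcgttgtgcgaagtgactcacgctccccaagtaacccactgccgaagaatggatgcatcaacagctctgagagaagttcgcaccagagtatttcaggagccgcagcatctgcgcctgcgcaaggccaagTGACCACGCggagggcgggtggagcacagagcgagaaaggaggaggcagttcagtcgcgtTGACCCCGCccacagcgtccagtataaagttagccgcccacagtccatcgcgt
The Gstm5 window held 2 cores, TGACCACGC with its first base at -113 and TGACCCCGC with its first base at -53 from the transcript start. These letters did not occur in the Gsta4 window. Windows were found for 26 of the 32 genes, 29 windows in all, and 7 of them (24.1%) held the core, those of Sod2, Gstp1, Gstm5, Gstm7, Gclm, Prdx1 and 1 of the Txnrd1 windows. The core was found in 10.1% of all 33469 promoter windows of this length. A match describes the sequence and does not show that a factor binds there.

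Levels are log2 values of the deposited table and differences are the preferring minus the non-preferring line, so a difference of 1 is a doubling. A member was called changed when its adjusted p was under 0.05 in limma's moderated test, with the Benjamini-Hochberg adjustment over all 31042 probe sets. The median level of an array lay between 7.77 and 8.02. Several arrays went against their labels. When each array was placed between the lines of its pair by 100 probe sets chosen without that array, 15 of the 96 arrays lay on the side of the other line, both on odd-numbered and on even-numbered chromosomes. These were HAD1 28, LAD1 37, P 1, P 9, NP 1, NP 9, AA 15, AA 17, AA 19, ANA 16, ANA 18, sP 2, sP 9, sNP 8 and sNP 9. On this scale +1 is the median of the preferring and -1 that of the non-preferring line. Not all were equally clear: P 9 lay at -1.28 and -1.26 on odd-numbered and even-numbered chromosomes. NP 1 lay at 0.53 and 0.30, and ANA 18 at 0.02 on both, close to the midpoint of its lines. Results are given as labelled and again without these doubtful arrays. Leaving them out raises by construction any difference that runs with the line. The arrays sP 2 and sNP 2 were nearly the same, with an SD over probe sets of 0.0901 between them, against 0.165 for the next closest sP and sNP arrays, and whether they stem from separate animals is not known. Without both, no member passed in sP against sNP, and Gsta4 differed by 0.47 (limma adjusted p = 0.799). LAD1 36 is named LAD1 in its title and HAD1 in its source name, and was kept as LAD1. In bulk tissue fewer cells of a type and less RNA per cell cannot be told apart.

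Gsta4, the alpha class transferase specialised for 4-hydroxynonenal and related products of lipid peroxidation, was the only member called changed in any pair with arrays as labelled. It fell in both HAD lines relative to their LAD partners. Each of these results was 1 of 35 member probe sets; the share of all probe sets called was 0.963% in HAD1 against LAD1, with 0.486% lower in HAD1, and 4.09% in HAD2 against LAD2, with 1.91% lower in HAD2. The gene lies on chromosome 8 at 87947247 to 87964490 of GRCr8 and was measured by a single probe set, 1372297_at.

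In the 9 HAD1 arrays Gsta4 ranged from 9.86 to 11.08 with a median of 10.21, and in the 10 LAD1 arrays from 10.58 to 11.69 with a median of 11.21. The lines overlapped through HAD1 28, the highest HAD1 array, and LAD1 37, the lowest LAD1 array, both among the arrays nearer the other line. The means were 10.28 ± 0.39 in HAD1 and 11.18 ± 0.32 in LAD1 (SD), a difference of -0.90 (SE 0.15) or 1.87-fold lower in HAD1, with a limma adjusted p of 0.00508. All 9 HAD1 arrays lay below the LAD1 mean. Without the 2 doubtful arrays the lines did not overlap, at 9.86 to 10.57 in HAD1 and 10.93 to 11.69 in LAD1, and the difference was -1.07 (SE 0.12, limma adjusted p = 4.19e-06). In that setting 2.56% of all probe sets were called and 0.731% had lines that did not overlap. Moving LAD1 36 to the HAD1 group, where its source name would put it, gave -0.77 and a limma adjusted p of 0.109. That ends the call, with 0.0129% of all probe sets called. By its own probe set scores, however, LAD1 36 lay on the LAD1 side, at -0.75 on odd-numbered and -0.96 on even-numbered chromosomes. Its Gsta4 level was 11.36, above every HAD1 array.

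In HAD2 arrays Gsta4 ranged from 10.89 to 11.39 with a median of 11.24, and in LAD2 arrays from 11.31 to 11.72 with a median of 11.62. The lines overlapped over a narrow span, and all 10 HAD2 arrays lay below the LAD2 mean. The difference was -0.34 (SE 0.07), or 1.27-fold lower in HAD2, with a limma adjusted p of 0.00286. No array of this pair was nearer the other line. A fit of all 10 lines together, which shares their spread, gave an adjusted p of 0.347 for the same difference, with 4.27% of all probe sets called.

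In the other pairs Gsta4 did not pass the test as labelled, and neither did any of the 31042 probe sets, so that 0% were called in P against NP, AA against ANA and sP against sNP. At an unadjusted p under 0.05 there were 2, 5 and 1 of the 35 member probe sets in these pairs, beside 4.91%, 4.92% and 4.32% of all probe sets. Gsta4 ranged from 9.99 to 12.13 in P with a median of 11.31, and from 9.81 to 11.35 in NP with a median of 10.53. The lowest P array was P 9 and the highest NP arrays were NP 1 and NP 9, which are among the arrays nearer the other line. The difference was 0.64 (SE 0.22, unadjusted p = 0.00803, limma adjusted p = 0.676). In sP it ranged from 10.39 to 11.40 with a median of 11.04, and in sNP from 10.15 to 11.28 with a median of 10.40. The 2 lowest sP arrays were sP 2 and sP 9, and the 2 highest sNP arrays were sNP 8 and sNP 9, again the arrays nearer the other line. The difference was 0.41 (SE 0.17, unadjusted p = 0.023, limma adjusted p = 1). In AA it ranged from 9.76 to 11.38 with a median of 10.15, and in ANA from 10.12 to 10.90 with a median of 10.45. The 3 highest AA arrays were AA 15, AA 17 and AA 19, and they exceeded every ANA array, while ANA 16 was the lowest of its line. The difference was -0.13 (SE 0.18, limma adjusted p = 0.983).

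**Figure D1:**
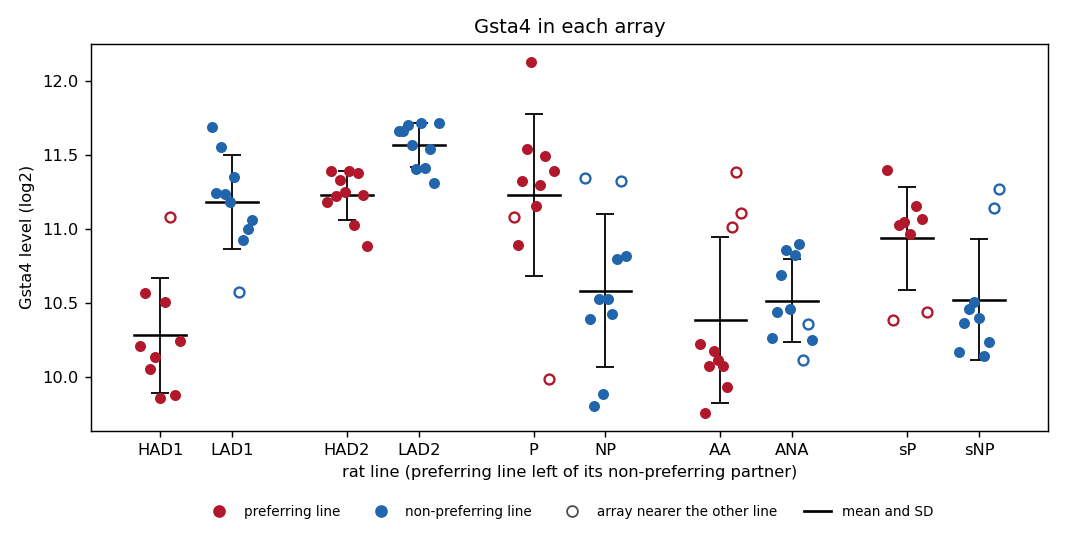
Gsta4 level (log2, vertical axis) in each array, by line, with each preferring line left of its non-preferring partner. Bars give the mean and SD of all arrays of a line, and open circles are the 15 arrays placed nearer the other line; without them the lines of 4 pairs are apart, and HAD2 and LAD2 still overlap.

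Without the doubtful arrays Gsta4 passed in all 5 pairs, lower in HAD1, HAD2 and AA and higher in P and sP. The difference was 1.01 (SE 0.17, limma adjusted p = 0.00267) between 8 P arrays at 10.89 to 12.13 and 8 NP arrays at 9.81 to 10.82. It was -0.53 (SE 0.11, limma adjusted p = 0.0107) between 7 AA arrays at 9.76 to 10.22 and 8 ANA arrays at 10.26 to 10.90. It was 0.78 (SE 0.08, limma adjusted p = 1.2e-05) between 6 sP arrays at 10.97 to 11.40 and 7 sNP arrays at 10.15 to 10.51. The lines did not overlap in these 3 pairs, where lines did not overlap for 0.731%, 0.931% and 1.64% of all probe sets and 1.62%, 1.8% and 1.75% were called. When the arrays were judged on odd-numbered chromosomes alone, which leaves out chromosome 8, the differences were 1.01 in P, -0.58 in AA and 0.77 in sP, with limma adjusted p of 0.00267, 0.00363 and 7.1e-05. Under that choice 1.62%, 2.5% and 1.51% of all probe sets were called. It was made after seeing the data and still drops arrays by their side, so it too raises line differences by construction. In P against NP it left out the same arrays as before, and in the other pairs ANA 20 and sP 6 in addition. It is therefore not a separate check.

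**Figure D2:**
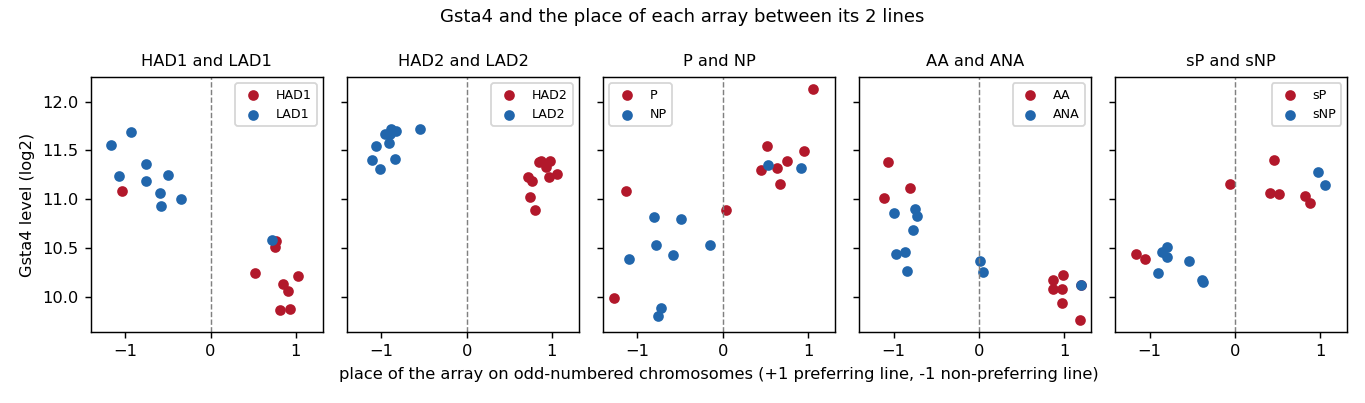
Gsta4 level (log2, vertical axis) against the place of each array between the lines of its pair on odd-numbered chromosomes (horizontal axis), 1 panel per pair. On that axis +1 is the median of the preferring and -1 the median of the non-preferring line, each taken without that array. P 1, at 11.08, keeps the level of its own line, and ANA 18, at 10.36, lies within the range of its own line. AA 15, AA 17 and AA 19, at 11.01 to 11.38, lie above all ANA arrays.

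The 5 differences of Gsta4 were unequal. The limma F test among pairs gave F = 12.1 with an adjusted p of 9.78e-06, at which 4.54% of all probe sets passed, and Gsta4 was the only member to do so. Their mean was -0.06 (SE 0.08, limma adjusted p = 0.956), and no member passed the test of the mean, which 0.986% of all probe sets passed. The SE and p of such a mean rest on the spread of arrays within lines, not on the spread among the 5 pairs. With the line pair as replicate, limma called 0 probe sets. With the doubtful arrays left out the mean was -0.03 (SE 0.05) and F was 54.6 (limma adjusted p = 1.17e-18). Those arrays were picked because they lay on the side of the other line. Leaving them out raises by construction any difference that runs with the line. This larger F and its p therefore cannot serve as a separate test of whether the 5 differences are unequal.

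Of the 20 genes annotated nearest to Gsta4 in GRCr8, 10 on each side, 7 had a probe set and none was called in any pair as labelled. Their differences ran from -0.19 to 0.07 in HAD1 against LAD1, from -0.11 to 0.04 in HAD2 against LAD2, from -0.03 to 0.08 in P against NP, from -0.49 to 0.03 in AA against ANA and from -0.92 to 0.03 in sP against sNP. The lowest value in both AA and sP was that of Ooep. Gsta5 and Gsta2, the alpha class genes next to it, had no probe set of their own symbol. With the doubtful arrays left out, which raises line differences by construction, 2 of the 7 neighbours passed. Both were lower in sP than in sNP, where 1.75% of all probe sets passed. They were Fbxo9 (-0.21, limma adjusted p = 0.0118) and Ooep (-1.83, limma adjusted p = 2.72e-07), named after their values were seen. Gclc, the catalytic subunit of glutamate-cysteine ligase, is the member nearest to Gsta4, on chromosome 8 at 87510251 to 87548896 of GRCr8. Neither of its probe sets passed in any pair.

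The remaining 30 measured members did not pass in any pair as labelled, and most of their differences as labelled were bounded. The 95% interval lay within 0.5 either way in 142 of 150 comparisons of a member with a pair. These intervals include the doubtful arrays, so they do not bound the differences that would hold if those arrays are mislabelled. At an unadjusted p under 0.05 there were 5 of 35 member probe sets in HAD1 against LAD1 and 4 in HAD2 against LAD2, Gsta4 included, beside 11% and 16.4% of all probe sets. No member had lines that did not overlap in any pair as labelled, where the share of all probe sets was 0.0193% in HAD1 against LAD1, 0.86% in HAD2 against LAD2, 0.00966% in sP against sNP and 0% in the others.

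**Figure D3:**
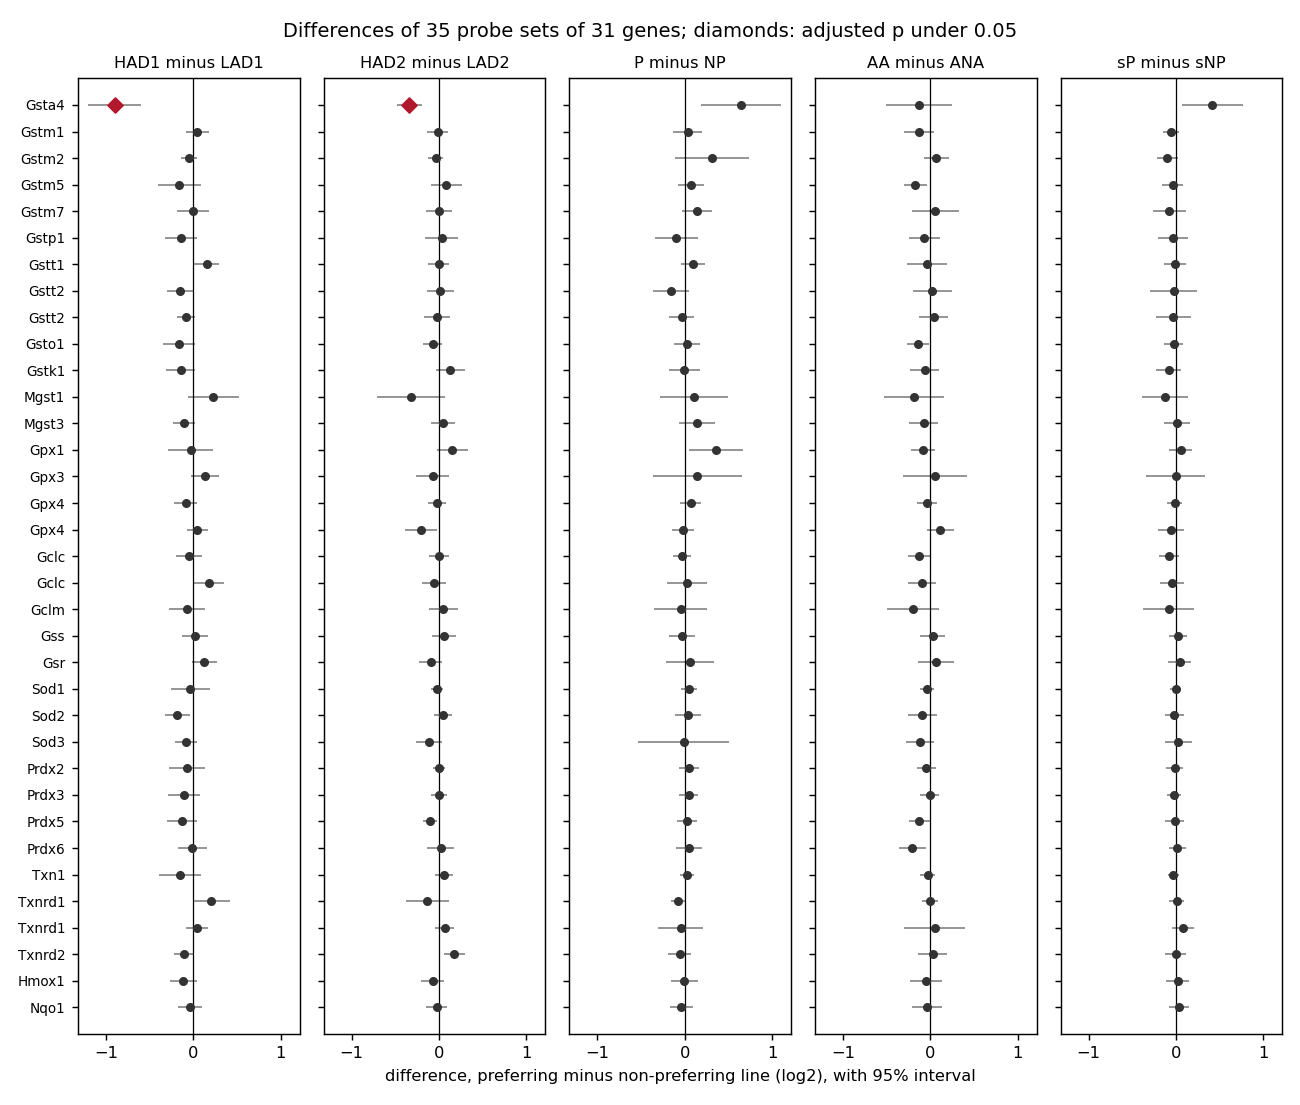
Difference between the preferring and the non-preferring line (log2, horizontal axis) for the 35 probe sets of 31 genes, 1 panel per pair, with 95% intervals. Red diamonds mark adjusted p under 0.05, and they are Gsta4 in HAD1 against LAD1 (-0.90) and in HAD2 against LAD2 (-0.34).

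Among the other cytosolic transferases, the mu class gene Gstm5 had the second smallest p of the members in AA against ANA. It ranged from 11.99 to 12.46 in AA with a median of 12.15, and from 12.13 to 12.59 in ANA with a median of 12.34. The lines overlapped over most of their range, and the difference was -0.17 (SE 0.06, limma adjusted p = 0.897). Without the doubtful arrays Gstm5 was lower in AA, at 11.99 to 12.26, against 12.23 to 12.59 in ANA. The difference was -0.28 (SE 0.06, limma adjusted p = 0.0154), in a setting where 1.8% of all probe sets passed. Gstm4, a mu class gene that is not a member, went the other way in that setting (0.48, limma adjusted p = 0.00104). Gstm5 lies in a cluster with Gstm7, Gstm2 and Gstm1 on chromosome 2 between 198219769 and 198346007 of GRCr8, and none of these 3 passed in AA against ANA in either setting. Probe sets of this family can bind transcripts of near-identical copies, so the assignment of signal among them is uncertain. Gstm7 ranged from 10.73 to 11.32 in P and from 10.63 to 11.22 in NP, with a difference of 0.14 (SE 0.08, limma adjusted p = 1). Gstm2 ranged from 5.12 to 5.62 in sP and from 5.31 to 5.52 in sNP, with a difference of -0.10 (SE 0.06, limma adjusted p = 1). The lines overlapped for both.

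Gsto1, an omega class enzyme that reduces dehydroascorbate and mixed disulphides, ranged from 12.23 to 12.75 in AA with a median of 12.51, and from 12.49 to 12.89 in ANA with a median of 12.64. The difference was -0.14 (SE 0.06, limma adjusted p = 0.971), smaller than the span over which the lines overlapped. Its difference was -0.16 in HAD1, -0.07 in HAD2, 0.03 in P and -0.02 in sP. The mean of the 5 was -0.08 (SE 0.03, unadjusted p = 0.0167, limma adjusted p = 0.399). Without the doubtful arrays the mean was -0.11 (SE 0.03, limma adjusted p = 0.0257), the only member to pass that test, at which 2.9% of all probe sets passed. Both of these SEs rest on arrays within lines and leave out the spread among the 5 pairs. For the theta class genes the differences ran from -0.04 to 0.15 for Gstt1 and from -0.16 to 0.02 for the brighter Gstt2 probe set. Gstp1, the pi class enzyme, ran from -0.14 to 0.03, and Gstm1 from -0.13 to 0.05.

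Of the mitochondrial and membrane transferases, Gstk1 ran from -0.14 to 0.13 over the 5 pairs and Mgst3 from -0.11 to 0.15. Mgst1 had the widest intervals of this group, with differences from -0.32 in HAD2 to 0.23 in HAD1. None of the 3 genes passed in any pair.

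Gpx1, the cytosolic glutathione peroxidase, had the second smallest p of the members in P against NP. It ranged from 11.84 to 13.45 in P with a median of 12.05, and from 11.58 to 12.23 in NP with a median of 11.87. The lines overlapped, and a single P array, P 5, stood above all others. The difference was 0.36 (SE 0.15, limma adjusted p = 0.887), and without P 5 it was 0.22. Gpx3, the secreted peroxidase, ran from -0.07 to 0.15, and the brighter probe set of Gpx4, which reduces peroxidised membrane lipids, ran from -0.09 to 0.07.

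P 5 also stood apart in markers of the choroid plexus, the secretory epithelium of the ventricles. The mean of 8 such markers was 11.9 in P 5, against 7.28 to 7.74 in the other 9 P arrays and 7.09 to 7.78 in NP, and 7 of the 8 were highest in P 5. Ttr, the transthyretin gene and a defining marker, was at 15.05 in P 5, against 6.10 to 8.85 in the other P arrays. P 5 was the highest P array for 13 of the 31 members and the lowest for 5. Gstm2 was at 7.84 in P 5, against 5.58 to 5.98 in the other P arrays. Sod3, the extracellular superoxide dismutase, was at 10.58 in P 5, against 7.76 to 8.54 in the others, and Gsta4 was at 12.13. Leaving out P 5 changed the difference of Gsta4 to 0.54, that of Gstm2 to 0.10, against 0.31 with it, and that of Sod3 to -0.27, against -0.01 with it. Leaving out P 5 and the doubtful arrays, an alternative added after seeing the data, gave 2 members called in P against NP, beside 1.68% of all probe sets. Gsta4 was higher in P by 0.90 (SE 0.15, limma adjusted p = 0.00242). Sod3 was lower in P, with a difference of -0.42 (SE 0.08, limma adjusted p = 0.00779), at 7.76 to 8.13 in 7 P arrays and 8.13 to 8.54 in 8 NP arrays, ranges that only just overlapped.

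**Figure D4:**
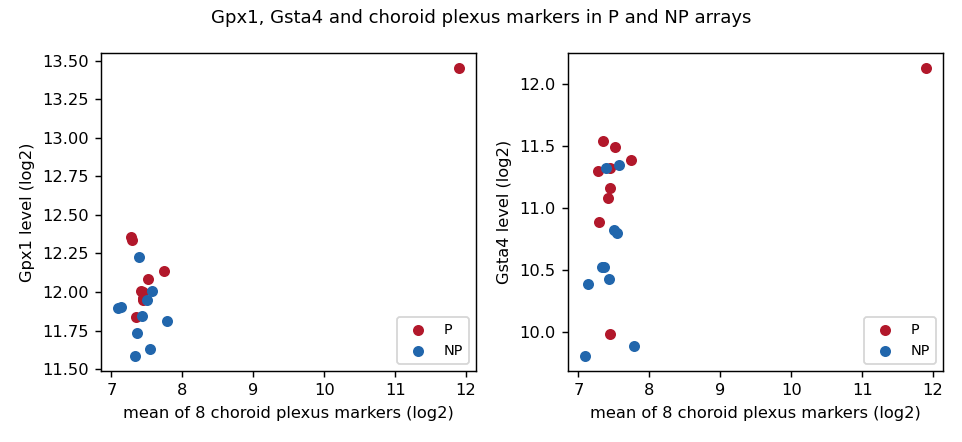
Gpx1 (left panel) and Gsta4 (right panel) level (log2, vertical axes) against the mean of 8 choroid plexus markers (log2, horizontal axes) in the 10 P and 10 NP arrays. P 5 is the point at 11.9 on the horizontal axis, and the other 19 arrays lie between 7.09 and 7.78.

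Among the genes of glutathione synthesis and recycling, Gclc was represented by probe sets that did not move together. The dimmer one, 1370688_at, ranged from 7.34 to 7.84 in HAD1 and from 7.16 to 7.68 in LAD1, with a difference of 0.18 (SE 0.08, limma adjusted p = 0.401). The brighter one, 1372523_at, differed by -0.05 in the same arrays. In sP the brighter one ranged from 9.83 to 10.14 and in sNP from 9.84 to 10.16, with a difference of -0.08 (SE 0.06, limma adjusted p = 1). Over the 4 members with 2 probe sets, the sign was opposite in 9 of 20 comparisons. Gclm, the modifier subunit of the same ligase, ran from -0.20 to 0.05, Gss, which completes glutathione, from -0.03 to 0.06, and Gsr, glutathione reductase, from -0.10 to 0.12.

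Sod2, the mitochondrial superoxide dismutase, had the second smallest p of the members in HAD1 against LAD1. It ranged from 9.49 to 9.91 in HAD1 with a median of 9.73, and from 9.68 to 10.11 in LAD1 with a median of 9.91. The lines overlapped, and the difference was -0.18 (SE 0.07, limma adjusted p = 0.289). Sod1, the cytosolic enzyme, differed by -0.04 to 0.05 over the 5 pairs.

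Of the peroxiredoxins, Prdx5, which is found in mitochondria and peroxisomes, ranged from 11.66 to 11.91 in HAD2 with a median of 11.78, and from 11.80 to 11.97 in LAD2 with a median of 11.90. The difference was -0.10 (SE 0.04, limma adjusted p = 0.15). It was -0.12 in HAD1, -0.13 in AA, -0.02 in sP and 0.03 in P, and the mean of the 5, -0.07 (SE 0.03, unadjusted p = 0.00894, limma adjusted p = 0.295), had the smallest p of the members in that test. Prdx6, the 1-cysteine peroxiredoxin, ranged from 11.26 to 11.96 in AA with a median of 11.68, and from 11.67 to 12.13 in ANA with a median of 11.83. Its difference, -0.21 (SE 0.07, limma adjusted p = 0.885), had the smallest p of the members in that pair, and the lines overlapped. Prdx2 ran from -0.07 to 0.05 and Prdx3 from -0.10 to 0.05.

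In the thioredoxin system, Txnrd2, the mitochondrial thioredoxin reductase, ranged from 8.12 to 8.36 in HAD2 with a median of 8.29, and from 7.92 to 8.37 in LAD2 with a median of 8.07. The highest array of this pair was a LAD2 array, so the HAD2 range lay within the LAD2 range. The difference was 0.18 (SE 0.06, limma adjusted p = 0.0892). Without LAD2 11 it was 0.21 and passed, with a limma adjusted p of 0.0173, at which 5.57% of all probe sets were called. Txn1, thioredoxin, ran from -0.16 to 0.06 and the brighter Txnrd1 probe set from -0.13 to 0.21. Hmox1, heme oxygenase, ran from -0.11 to 0.02, and Nqo1, a quinone reductase, from -0.04 to 0.04.

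The members as a whole differed little between lines. The median difference was -0.08 in HAD1 with 8 of 31 members positive, -0.00 in HAD2 with 15 positive, 0.04 in P with 20 positive, -0.05 in AA with 7 positive and -0.01 in sP with 10 positive. The medians over all 14217 genes were -0.01, -0.00, 0.01, 0.00 and -0.01 in the same order, and the shares of positive genes were 43.6%, 48.4%, 53.5%, 51% and 41.3%. The mean level of the 31 genes per array was 9.97 ± 0.09 in HAD1 and 10.04 ± 0.10 in LAD1, 10.12 ± 0.06 in HAD2 and 10.14 ± 0.07 in LAD2, and 10.64 ± 0.12 in P and 10.57 ± 0.10 in NP (SD over arrays). It was 10.51 ± 0.09 in AA and 10.57 ± 0.11 in ANA, and 10.51 ± 0.06 in sP and 10.52 ± 0.06 in sNP. The ranges of the lines overlapped in every pair. Without the doubtful arrays the median difference was -0.07 in HAD1, 0.06 in P, -0.08 in AA and -0.02 in sP, with 8, 22, 6 and 13 of 31 members positive, and over all genes it was -0.01, 0.01, 0.00 and -0.02.

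**Figure D5:**
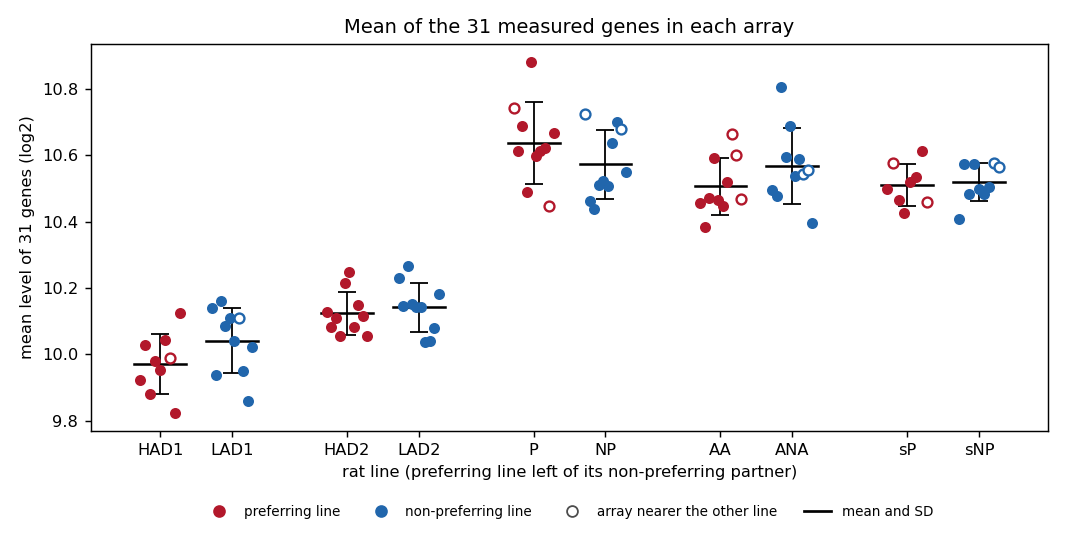
Mean log2 level of the 31 measured genes (vertical axis) in each array, by line, with the mean and SD of each line and open circles for arrays nearer the other line. The lines of every pair overlap; levels differ more between pairs than within them, and whether the pairs were normalized together is not given in the labels.

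Further genes of the pathway were examined as listed groups. Of 14 measured further glutathione transferase genes of 18 listed, 3 passed in HAD2 against LAD2, where 4.09% of all probe sets passed, and none in another pair. Gstt3 was higher in HAD2 by 0.46 (limma adjusted p = 0.0468), and Gstcd and Mgst2 were lower, with differences of -0.48 and -0.51 (limma adjusted p = 1.68e-05 and 0.00102). Of 22 measured genes of glutathione supply, breakdown and use of 24 listed, 1 passed in HAD1 against LAD1, where 0.963% of all probe sets passed, and 2 in HAD2 against LAD2, where 4.09% passed. Chac2, which degrades glutathione, was lower in HAD1, at 7.34 ± 0.31, against 7.85 ± 0.16 in LAD1 (SD), a difference of -0.52 (SE 0.11, limma adjusted p = 0.0176). The same gene was higher in HAD2, at 8.15 ± 0.23, against 7.76 ± 0.22 in LAD2 (SD), a difference of 0.39 (SE 0.10, limma adjusted p = 0.0194). Slc7a11, the cystine importer that feeds glutathione synthesis, was lower in HAD2, with a difference of -0.32 (SE 0.09, limma adjusted p = 0.0293). None of 26 measured further peroxide, thioredoxin and repair enzymes of 27 listed passed in any pair as labelled. Of 26 measured genes of 29 in a broad list of Nrf2-related genes, 7 passed in HAD2 against LAD2, beside 4.09% of all probe sets, and none elsewhere. Whether each of these genes answers to Nrf2 was not tested. Hmox2, Blvra, Ephx1 and Mt2A were higher in HAD2, by 0.26, 0.18, 0.50 and 0.40. Nfe2l1, Blvrb and Cbr1 were lower, with differences of -0.43, -0.30 and -0.49. The median difference of the Nrf2 list in this pair was 0.03, with 17 of 26 genes positive.

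When the doubtful arrays were left out, 7 differences of the 88 genes measured in these 4 lists passed in the other pairs, 3 in P, 2 in AA and 2 in sP, where 1.62%, 1.8% and 1.75% of all probe sets passed. In AA against ANA, Gstm4, a mu class transferase, was higher by 0.48 (limma adjusted p = 0.00104), and Cth, which makes cysteine from cystathionine, had a difference of -0.50 (limma adjusted p = 0.0359). In P against NP, Glrx5 was higher by 0.28, Cbr1 was higher by 0.35 and Nqo2 had a difference of -1.13 (limma adjusted p = 0.000942, 0.0148 and 0.0157). In sP against sNP, Ggct was higher by 0.28 and Gpx2, a further glutathione peroxidase, had a difference of -0.93 (limma adjusted p = 0.046 and 0.00412). None of them passed as labelled.

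Cell type markers were set beside these results. The mean of 10 measured astrocyte markers differed by -0.05 in HAD1, 0.03 in HAD2, -0.04 in P, -0.03 in AA and -0.03 in sP. Of these markers Gjb6 alone was called, higher in HAD2. The mean of 12 microglial markers was 8.53 to 8.96 in HAD1 arrays and 8.74 to 9.20 in LAD1 arrays, with 0 of 12 genes positive and Cx3cr1 and C1qc called lower. It was 8.42 to 8.81 in HAD2 and 8.46 to 9.59 in LAD2, with 2 of 12 positive, Cx3cr1 called lower and P2ry12 called higher. The part of microglia in the Gsta4 differences was not tested. The mean of 8 choroid plexus markers was 7.56 to 7.79 in HAD2 arrays and 7.70 to 8.40 in LAD2 arrays, a difference of -0.25 with 2 of 8 positive and none called, and its part in the HAD2 results was not tested. In HAD1 this mean differed by -0.02, with 3 of 8 positive and Igf2 called lower. The mean of 14 oligodendrocyte markers differed by -0.14 in AA, with 1 of 14 positive and none called, by -0.10 in P and by -0.03 to 0.03 in the other pairs, and its part in the AA results was not tested. The mean of 11 vascular markers differed by 0.18 in sP, with 11 of 11 positive and none called as labelled, and its part in the sP results was not tested. It differed by -0.06 in HAD1, with Abcb1a called lower. In HAD2 it differed by 0.09, with Abcb1a and Rgs5 called higher and Tek called lower. The mean of 10 central amygdala markers differed by -0.16 in HAD2 and by -0.08 to 0.06 in the other pairs. That of 10 neuron markers differed by -0.05 to 0.05, and neither list had a called gene. The part of these lists in the Gsta4 differences was not tested. The log2 ratio of the 3′ to the 5′ GAPDH control probe sets, a measure of RNA integrity and amplification, was 3.84 ± 0.66 in HAD1 and 4.09 ± 0.46 in LAD1 and 3.43 ± 0.58 in HAD2 and 3.33 ± 0.26 in LAD2 (SD). It was 0.20 to 0.43 as the mean of each line of the other 3 pairs, so the pairs differ in this measure far more than the lines within them. Its part in the variation of Gsta4 among pairs was not tested. In a fit with this ratio as a covariate F was 12.2 (limma adjusted p = 8.31e-06). That fit gives each line its own mean, so it uses the ratio only within lines and cannot address the gap between pairs. The ratio did not pass a permutation test between the lines of any pair, the smallest adjusted p being 0.0597 in sP against sNP.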

How the data were processed

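Gene expression was measured in the central nucleus of the amygdala of 96 rats, from 25 ng of total RNA amplified by the 2-cycle Affymetrix protocol, per the labels' protocols. RMA, named in the submitters' processing notes, had produced the authors' deposited table of log2 values. Neither its version nor a joint normalization of the 5 pairs is stated there. No value column lacked a sample (0 such columns). AFFX controls, 57 probe sets in all, were dropped, and without detection calls dim probe sets may lie near background. The number of arrays limits the precision. Groups came from the sample titles.

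Within each pair, R 4.3.3 and limma 3.58.1 (lmFit, and eBayes with an intensity trend) compared the lines on the values as deposited, with p-values adjusted over 31042 probe sets and a threshold of 0.05. All 10 lines entered 1 fit, with the array as replicate, for the mean of the 5 differences and the F test of their variation. The scripts were tested on simulated data. For gene counts and medians, the probe set with the highest mean stood for its gene. Symbols came from the platform annotation. Members with a passing probe set, and the 3 with the smallest p in each pair, were given line by line, and genes of other lists were named where they passed. The members and lists were chosen with earlier results of these data known. Alternatives covered array choice, array weights, filtering, normalization, the intensity trend, the GAPDH ratio as covariate, the probe set rule and the replicate number as a block.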

Additional observations from a re-analysis of the deposited data

Results flagged for a closer look

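The 5 differences of Gsta4 between the preferring and the non-preferring line were unequal by limma's F test (F = 12.1, adjusted p = 9.78e-06), with negative values in HAD1, HAD2 and AA and positive values in P and sP. As labelled, the difference was called in HAD1 and HAD2 only.

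In 5 of 46 groups of arrays examined, 1 array stood apart from the others of its line by Dixon's criterion, which chance meets in about 1 in 20 groups. The P 5 array had 7.84 for Gstm2, against 5.58 to 5.98 in the other P arrays, 13.45 for Gpx1, against 11.84 to 12.36, and 10.58 for Sod3, against 7.76 to 8.54. Gstm2 and Sod3 in P were examined after their values were seen. This is the array with high choroid plexus markers. In sP 4, Gstm2 was at 5.62, against 5.12 to 5.32 in the other sP arrays. In sP 9, the brighter Gclc probe set was at 10.14, against 9.83 to 9.97 in the other sP arrays, and sP 9 is among the arrays nearer the sNP line.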

How the results depend on the processing

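Gsta4 kept its direction in every pair under the alternatives run. The median member difference, which had no test, changed sign without single arrays in HAD2 (-0.02 to 0.01) and sP (-0.04 to 0.01). Among differences that were not called, that of Gsto1 in P against NP was -0.05 without the doubtful arrays, against 0.03 with them, and that of Gstm1 was -0.04 without P 5, against 0.03 with it. Gsta4 passed in 30 of 31 settings in HAD1 against LAD1, with differences from -1.07 to -0.77. In HAD2 against LAD2 it passed in 31 of 32, from -0.37 to -0.30. Several of these settings leave the arrays of the pair as they were or repeat another setting. The tallies therefore count the same fit more than once and are not numbers of independent checks. Members called numbered 0 in HAD1 against LAD1 when LAD1 36 was counted as HAD1, and to 0 in HAD2 against LAD2 in 1 fit of all lines. Array weights gave 3 in HAD2 against LAD2 (Gsta4, Prdx5 and Txnrd2, with 5.85% of all probe sets called) and 2 in the variation among pairs (Gsta4 and Txnrd2, with 12.8%). Without the 15 doubtful arrays there was 1 in P against NP, 2 in AA against ANA, 1 in sP against sNP and 1 in the mean over pairs. Judging arrays on the other chromosomes, a choice made after seeing the data, gave 1, 2 and 1 in these 3 pairs. Leaving out P 5 as well, also chosen after seeing the data, gave 2 in P against NP, 2 in the mean over pairs (Gsto1 and Sod3, with 2.98% called) and 2 in the variation (Gsta4 and Sod3, with 10.7%). Without each array in turn the count in HAD2 against LAD2 ran from 1 to 2, and the other counts did not move. With the replicate number as a block, 0 members passed in P against NP and 0 in sP against sNP, and Gsta4 differed by 0.64 and 0.49. Same-numbered arrays correlated at -0.11 to 0.51 in P and NP and at -0.18 to 0.77 in sP and sNP, the highest being the nearly identical arrays numbered 2, best with their own number in 2 of 10 and 1 of 8, so the numbers were not taken to pair animals. With the line pair as replicate, limma called 0 probe sets and 0 members; at an unadjusted p under 0.05 there were 1035 probe sets and 0 members. The causes of these changes were not tested. Signal over background was not available, and 8 to 10 arrays a line limit what differences can be called.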
